A study of Mus musculus with 12 samples.

Results

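Ribosome-bound RNA of mouse beta-like cells was compared between cells given an siRNA against Pdx1 and cells given a control siRNA, labelled NT. The comparison holds 6 of the 12 libraries of the series, 3 of each treatment, chosen by their titles as the IP libraries, IP standing for the fraction recovered with immunopurified ribosomes. All cells were MIN6, an established line from a mouse insulinoma, at passage 29. They were grown in high-glucose medium, nucleofected with the siRNA on the AMAXA system and collected after 72 h, so the controls carry the same nucleofection. The other 6 libraries are total RNA of the same treatments and are used here for the shared estimate of spread and for the comparison of the fractions. The labels do not name the tagged ribosomal protein, the way it was expressed or the design of the siRNA. The labels also leave out whether the 3 libraries of a group came from separate cultures, so p-values reflect library-to-library spread that may be technical.

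PDX1 is a homeodomain transcription factor that the pancreas needs to form and that mature beta cells keep expressing, where it binds the insulin promoter and promoters of genes for glucose uptake and insulin secretion. People and mice with reduced PDX1 have impaired insulin secretion, and beta cells that lose it take on features of alpha cells. In translating ribosome affinity purification (TRAP), a tagged ribosomal protein lets ribosomes be pulled out of a cell lysate with the mRNAs they carry, so the level of an mRNA in IP RNA follows both its amount and how much of it is on ribosomes. MIN6 cells divide, unlike most adult beta cells, so genes of the cell cycle are read here in a growing line.

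The IP libraries held between 29430690 and 45806807 counts. After matching to gene symbols, 12643 genes were tested. Levels are given in CPM, counts scaled to a common library size after TMM normalisation, which centres most genes, and are not divided by transcript length, so they are compared between libraries of 1 gene and not between genes. Within a group, IP libraries correlated across genes with r between 0.9905 and 0.9977 on the log2 CPM scale. NT IP library 3 stood apart from the other 2 NT libraries and lay with the Pdx1 siRNA libraries at multi-copy genes: those with a near-identical copy over 50% or more of their transcript took 3.41% and 3.15% of the counts in NT libraries 1 and 2, 2.35% in NT library 3, and 2.24%, 2.20% and 1.90% in the Pdx1 siRNA libraries. In total RNA the share was 2.69%, 2.5% and 2.62% with NT and 2.43%, 2.09% and 1.95% with Pdx1 siRNA, so it was lower with Pdx1 siRNA there too. The split of the IP libraries overlaps with the treatment, so each test was also run with the split as a term of the model. The siRNA effect then rests on NT library 3 alone, assumed to vary like the other groups.

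Pdx1 (RefSeq transcript on chromosome 5, 147270097 to 147275848 of GRCm38) was lower in the cells given its siRNA. It lay at 104, 115 and 111 CPM with NT siRNA and at 50.6, 46.7 and 39.2 CPM with Pdx1 siRNA, so every treated library was below every control. The log2 fold change was −1.27 ± 0.10 (SE, adjusted p = 4.3e-08, quasi-likelihood test of edgeR, Benjamini-Hochberg adjusted over all genes), and with the split as a term it was −1.29 (adjusted p = 1.0e-06).

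Across the 12643 genes, 7542 (59.7%) passed the test at an adjusted p under 0.05: 3694 (29.2%) were higher and 3848 (30.4%) lower with Pdx1 siRNA. A change of 2-fold or more was found in 541 higher genes (4.28%) and 656 lower genes (5.19%), so most changes were small, with a median size of 0.52 on the log2 scale among genes that passed. The 3 libraries of one treatment all lay above the 3 of the other at 8208 genes (64.9%), with the treated ones higher at 4081 (32.3%) and lower at 4127 (32.6%). With the split as a term 5212 genes passed (41.2%), 2603 of them higher (20.6%) and 2609 lower (20.6%); 5075 genes passed in the same direction in both fits and 3, Ass1, Rnaset2b and Selenok-ps1, in opposite directions. The balance of higher and lower genes depends on the scaling. With library totals in place of TMM, 1692 genes were higher and 6762 lower and the median of all genes moved from −0.01 to −0.32, so the counts higher and lower under that scaling are given beside each list where either moved by over 1.5 times. Each list count below is to be read against the same count over all genes. That is 29.2% higher and 30.4% lower, 20.6% and 20.6% with the split, and 1692 and 6762 of 12643 genes with library totals. The genes named below by the rule for changed genes passed both fits, had a mean of 5 CPM or more and had no overlap between treatments, so the absence of overlap in them is a condition of the choice; other genes are given with the fit they passed. These conditions were met by 2041 higher genes (16.1%) and 2086 lower genes (16.5%).

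Among 20 measured core transcription factors of the beta cell, 6 were higher and 9 lower (median log2 fold change −0.15; 2 and 12 with library totals), against 29.2% and 30.4% of all genes. Pdx1 was the only one of them lower by 2-fold or more. Nkx2-2, a homeodomain factor of the beta-cell lineage, lay at 62, 67.4 and 63.1 CPM with NT and 123, 111 and 124 CPM with Pdx1 siRNA (log2 fold change 0.89 ± 0.07, adjusted p = 3.5e-08). Insm1, a zinc finger repressor of endocrine cells, moved the other way, from 149, 151 and 157 CPM to 98.5, 97.3 and 86.8 CPM (−0.70 ± 0.08, adjusted p = 1.9e-06). The values of both treatments were far apart for these genes, the controls being the low libraries for Nkx2-2 and the high ones for Insm1. Hnf4a, a nuclear receptor of liver and islet, rose by 0.63 on the log2 scale. Mafa, which activates insulin transcription, was at 36.8, 44.9 and 44.1 CPM and 34, 27.5 and 33.6 CPM, a difference of −0.40 ± 0.14 (adjusted p = 0.0193) that lost its call when NT library 2 was left out (adjusted p = 0.063) or Pdx1 siRNA library 2 was left out (adjusted p = 0.0944).

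Genes reported as PDX1 targets were mixed. Of 18 measured, 5 were higher and 9 lower, with a median log2 fold change of −0.20 (2 and 12 with library totals). Pdx1, the target of the siRNA, is itself on this list and counts among the lower genes. Slc2a2, the glucose transporter GLUT2, lay at 14, 16.9 and 14.2 CPM with NT siRNA and 7.59, 7.75 and 7.43 CPM with Pdx1 siRNA and fell by 0.99 ± 0.11 on the log2 scale (adjusted p = 1.3e-06), with no overlap of the treatments. G6pc2, an islet glucose-6-phosphatase, was lower (−0.52 ± 0.10, adjusted p = 4.2e-04), as was Glp1r, the receptor of the incretin GLP-1 (−0.56 ± 0.14, adjusted p = 0.00307). The insulin genes themselves moved little. Ins1 lay at 31421, 31281 and 33139 CPM with NT and 26706, 22746 and 29279 CPM with Pdx1 siRNA, and its change of −0.28 ± 0.11 (adjusted p = 0.0415) did not pass with the split as a term (−0.34, adjusted p = 0.126). Ins2, at 121318, 120856 and 149861 CPM and 142079, 114783 and 145087 CPM, had overlapping treatments and a change of 0.04 ± 0.13 (adjusted p = 0.835), and with library totals it was −0.28 (adjusted p = 0.0036). Iapp, which encodes the co-secreted peptide amylin, also overlapped, at 55239, 49604 and 53264 CPM and 48013, 45740 and 52273 CPM (−0.11 ± 0.12, adjusted p = 0.419).

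Hormones and markers of other islet endocrine cells were higher in the Pdx1 siRNA libraries. All 7 of the 14 listed that were measured passed the test (7 higher, 0 lower, median log2 fold change 1.68). Gcg, the proglucagon gene of alpha cells, was at 1492, 1532 and 1535 CPM with NT and 5293, 5247 and 5943 CPM with Pdx1 siRNA. Gc, a vitamin D binding protein enriched in alpha cells, was at 156, 149 and 160 CPM and 623, 587 and 666 CPM, and rose by 2.01 ± 0.08 on the log2 scale (adjusted p = 5.0e-11). Both genes were several-fold above every control library, with little spread within a treatment. Ttr, a thyroid hormone carrier made in islets, rose by 1.68 ± 0.13 (adjusted p = 5.0e-08), and Irx1, an alpha-cell homeodomain factor, went from 5.27, 5.59 and 5.83 CPM to 12.9, 11.2 and 14 CPM (1.19 ± 0.10, adjusted p = 1.2e-07). In these bulk samples more cells that express such a gene and more of its RNA per cell cannot be told apart.

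Genes of the insulin granule were mostly higher. Of 22 genes for its cargo, processing enzymes and membrane, 16 rose and 3 fell (median 0.83; 13 and 6 with library totals). Chgb, the granule protein chromogranin B, lay at 5585, 6247 and 5728 CPM with NT and 17893, 17193 and 20421 CPM with Pdx1 siRNA (1.66 ± 0.13, adjusted p = 4.8e-08). Resp18, another granule protein of endocrine cells, was at 1720, 1732 and 1815 CPM and 4617, 4183 and 5450 CPM (1.44 ± 0.10, adjusted p = 1.8e-08). The 3 treated libraries were above the controls in both. Pcsk1, the prohormone convertase that cuts proinsulin, rose by 0.54. The lower members were Npy, Sytl4 and, without the split as a term only, Ins1, whose call was also lost when each of 5 of the 6 IP libraries was left out in turn. Npy, a peptide hormone found in beta-cell granules, went from 1001, 918 and 1102 CPM to 317, 290 and 331 CPM (−1.69 ± 0.13, adjusted p = 2.6e-08). Sytl4, the granule effector granuphilin, went from 55.1, 58.1 and 55.7 CPM to 25, 28.2 and 27 CPM (−1.07 ± 0.08, adjusted p = 2.2e-08). Both genes were low in the 3 treated libraries alone.

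Further along the secretory path, docking and fusion genes moved both ways, with 14 of 30 higher and 6 lower (median 0.17), which turned to 6 and 12 with library totals (median −0.14). Snap25, a SNARE of the plasma membrane, rose by 0.64 ± 0.08, Syt4, a synaptotagmin of maturing beta cells, by 0.76 ± 0.11, and Rab3d, a granule GTPase, by 0.61 ± 0.08 (adjusted p = 1.3e-05, 2.6e-05 and 7.4e-06). Doc2b, a calcium sensor of fusion, and Exoc1, an exocyst subunit, were lower (−0.57 and −0.58). Of 17 genes for calcium pumps, channels and sensors, most of them of the endoplasmic reticulum (ER), 13 were higher and 2 lower (8 and 1 with the split as a term, 7 and 4 with library totals). Orai2, a store-operated channel, rose from 36.1, 35.8 and 39.9 CPM to 77.1, 71.6 and 86.3 CPM (1.07 ± 0.08, adjusted p = 4.6e-08), while Atp2a2, which encodes the ER calcium pump SERCA2, fell from 1585, 1734 and 1435 CPM to 812, 813 and 950 CPM (−0.88 ± 0.11, adjusted p = 6.3e-06). The treated libraries were thus the high ones for Orai2 and the low ones for Atp2a2.

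Among 22 nutrient-sensing and ion channel genes, 13 were higher and 6 lower (median 0.31; 8 and 5 with the split as a term, 5 and 7 with library totals). Trpm5, a calcium-activated cation channel, went from 90.9, 94.9 and 103 CPM to 29.7, 37 and 37.4 CPM (−1.47 ± 0.11, adjusted p = 2.9e-08). Kcnk16, the islet potassium channel TALK-1, and Scn3a, a sodium channel subunit, rose by 0.91 and 0.98. Receptors for hormones and nutrients were more often higher, 16 of 23, with 4 lower (median 0.67). Sstr1, a somatostatin receptor, was at 1.56, 2.08 and 1.46 CPM with NT and 10.4, 12.2 and 14.7 CPM with Pdx1 siRNA (2.88 ± 0.17, adjusted p = 1.3e-09). Gpr119, a receptor for lipid amides, was at 5.72, 5.06 and 6.03 CPM and 32.4, 35 and 37.4 CPM (2.64 ± 0.09, adjusted p = 1.8e-11). Both were low in all controls, and Sstr1 met the condition of 5 CPM or more only through the treated libraries. Adra2a, the inhibitory adrenergic receptor, and Galr1, a galanin receptor, were lower (−0.66 and −0.48).

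**Figure D1:**
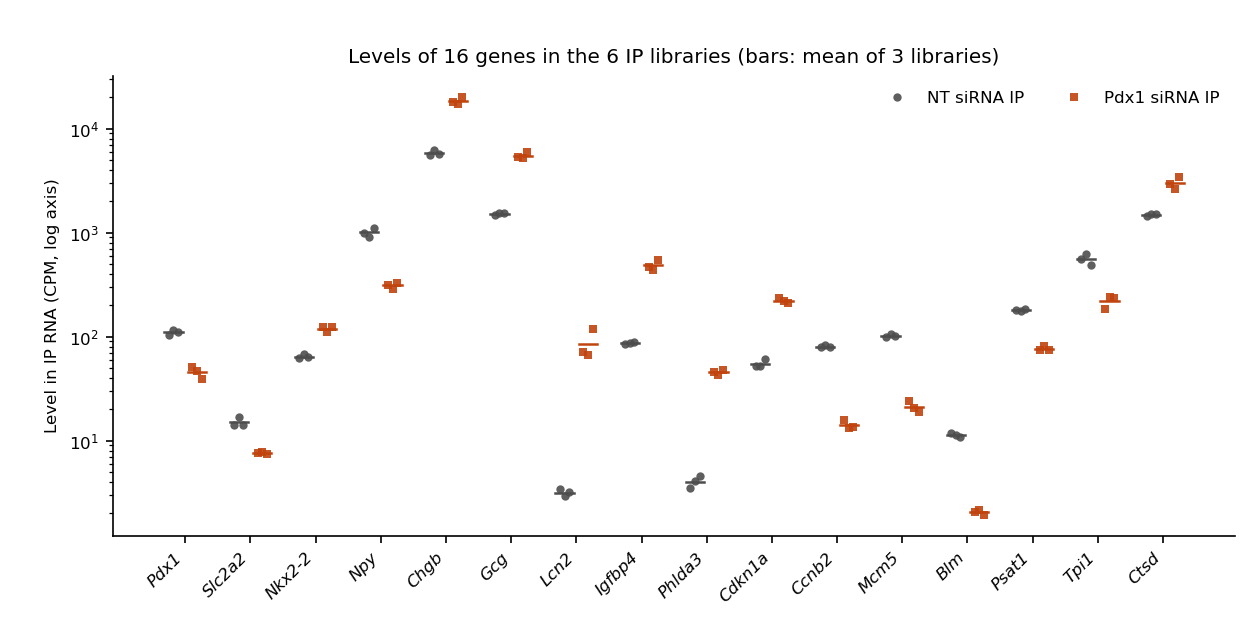
Level of 16 genes in the 6 IP libraries, in CPM on a log axis, 1 column a gene. Circles are NT siRNA libraries, squares Pdx1 siRNA libraries and bars the mean of 3. Treatments do not overlap for any of these genes, chosen among those that did not, Gcg, Lcn2, Igfbp4, Phlda3, Cdkn1a and Chgb being higher and Pdx1, Npy, Ccnb2, Mcm5, Blm and Psat1 lower with Pdx1 siRNA.

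The highest fold changes among genes that met these conditions are given next. The condition of 5 CPM or more is a mean over all 6 IP libraries. Lcn2, St14, Dglucy and Pnliprp2, low in the controls, met it only through the treated libraries. Their low control levels are thus tied to the choice and are not a separate result. Lcn2, a secreted iron-siderophore carrier, was at 3.39, 2.92 and 3.17 CPM with NT siRNA and 70.5, 65.9 and 118 CPM with Pdx1 siRNA (4.74 ± 0.25, adjusted p = 4.7e-10). St14, the membrane protease matriptase, was at 2.73, 2.65 and 3.34 CPM and 32.9, 26.7 and 38.1 CPM, and Dglucy, a mitochondrial D-glutamate cyclase, at 1.17, 1.4 and 1.74 CPM and 13.7, 13.7 and 16.3 CPM. Their log2 fold changes were 3.48 ± 0.18 and 3.35 ± 0.15 (adjusted p = 3.2e-10 and 7.7e-11). Pnliprp2, a lipase known from the exocrine pancreas, was at 2.25, 1.81 and 2.19 CPM and 18.5, 18.2 and 26.5 CPM (3.33 ± 0.19, adjusted p = 1.0e-09). The others of the 10 highest were Serpine2, Serpina7, Cpz, Podn, Clec2d and Phlda3, between 3.50 and 3.96. Of the 10 lowest, 9 are genes of cell division or its control: Bub1, Cdkn3, Prr11, Cdc20, Aspm, Ttk, Troap, Plk1 and Sgo2a, between −2.54 and −2.78; 35% of the Sgo2a exons lie in a gene on the opposite strand. The other is Rbm3, a cold-inducible RNA-binding protein, which went from 34.2, 35.6 and 11.2 CPM to 4.91, 4.35 and 4.03 CPM (−2.62 ± 0.31, adjusted p = 4.1e-06). NT library 3 lay between the other controls and the treated libraries, and with the split as a term the change was −1.34 (adjusted p = 1.4e-07); Rbm3 has a near-identical copy over 19.3% of its transcript.

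Genes of cell division were lower without exception among those measured. All 63 measured genes of mitosis, spindle and kinetochore fell (median −2.17, range −2.95 to −0.32), as did all 49 of DNA replication licensing and synthesis (median −1.66), where 30.4% of all genes were lower. With the split as a term 63 and 49 passed as lower and none as higher. Ccnb2, a mitotic cyclin, Mcm5, a subunit of the replicative helicase, and Cdc6, which loads that helicase, are shown with the 250 bases before their RefSeq start (GRCm38.p6), because promoters of such genes are known for a few short motifs. The capitals mark TTTGAA, the cell cycle homology region that the DREAM and MuvB complexes bind, the E2F letters TTTGGCGC, TTTCGCGC or TTTCCCGC, and CCAAT, the NF-Y box, each searched on both strands. Ccnb2 was picked because its window holds TTTGAA, and Mcm5 and Cdc6 because theirs hold the E2F letters. These matches are thus a condition of the choice. Coordinates are chr9:70421555-70421804 on the minus strand for Ccnb2, chr8:75109259-75109508 on the plus strand for Mcm5 and chr11:98907901-98908150 on the plus strand for Cdc6.
Ccnb2: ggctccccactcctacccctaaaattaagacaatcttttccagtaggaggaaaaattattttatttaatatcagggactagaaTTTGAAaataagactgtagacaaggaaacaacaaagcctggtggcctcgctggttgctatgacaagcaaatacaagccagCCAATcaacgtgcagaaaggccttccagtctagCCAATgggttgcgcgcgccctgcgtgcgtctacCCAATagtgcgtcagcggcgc
Mcm5: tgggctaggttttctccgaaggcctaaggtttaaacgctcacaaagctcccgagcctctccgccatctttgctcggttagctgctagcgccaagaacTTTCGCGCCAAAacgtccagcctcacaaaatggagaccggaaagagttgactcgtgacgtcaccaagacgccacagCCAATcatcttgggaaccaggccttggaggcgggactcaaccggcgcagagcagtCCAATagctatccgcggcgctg
Cdc6: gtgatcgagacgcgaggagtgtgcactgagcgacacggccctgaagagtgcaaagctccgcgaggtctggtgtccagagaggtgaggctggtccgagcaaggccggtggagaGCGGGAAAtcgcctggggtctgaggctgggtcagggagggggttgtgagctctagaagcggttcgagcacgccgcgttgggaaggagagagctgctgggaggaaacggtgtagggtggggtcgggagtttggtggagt

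The Ccnb2 window held 1 TTTGAA beginning 167 bases before the start and 3 CCAAT boxes at 87, 54 and 21 bases. In the Mcm5 window TTTCGCGC at 153 overlaps GCGCCAAA, an E2F match on the other strand, at 149, and CCAAT boxes lie at 77 and 22. Cdc6 held GCGGGAAA, an E2F match on the other strand, at 138 and no CCAAT. The letters TTTGAA were in 19 of 55 promoters of the mitosis genes (34.5%), against 10.3% of the 12923 promoters of tested genes and 16% of all 32851 promoters. For the E2F letters the shares were 20% of 45 replication promoters, 9.09% of mitosis promoters, 2.82% of those of tested genes and 1.53% of all. CCAAT was in 67.3% of mitosis and 55.6% of replication promoters against 35.7% of those of tested genes and 33.8% of all. Nuf2, Racgap1 and Cenpe, named below, lack TTTGAA in their windows, and Cdc45 and Mcm3 lack the E2F letters. A match is a stretch of letters and says nothing of binding in these cells.

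Ccnb2 itself was at 79.6, 82.6 and 78.7 CPM with NT and 15.6, 13.2 and 13.6 CPM with Pdx1 siRNA (−2.51 ± 0.08, adjusted p = 1.7e-11). Mcm5 went from 98.5, 106 and 101 CPM to 24, 20.8 and 19 CPM (−2.27 ± 0.10, adjusted p = 6.9e-11), and Cdc6 from 19.3, 18 and 17.3 CPM to 4.7, 3.71 and 4.27 CPM (−2.12 ± 0.09, adjusted p = 7.7e-11). In all 3 genes the treated libraries lay far below the controls. Nuf2, a kinetochore protein, Racgap1, a regulator of cytokinesis with a copy over 16% of its transcript, and Cenpe, a kinetochore motor, fell by 2.19, 2.17 and 2.24 on the log2 scale. Mcm3, of the helicase, and Cdc45, its activator, fell by 2.16 and 1.84.

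Homologous recombination and Fanconi repair genes moved with them: 35 of 36 fell and 0 rose (median −1.22). Brca1 went from 18.7, 18.8 and 19.6 CPM to 5.08, 4.76 and 4.24 CPM (−2.03 ± 0.08, adjusted p = 3.4e-11), and Blm, the helicase mutated in Bloom syndrome, from 11.7, 11.2 and 10.9 CPM to 2.06, 2.16 and 1.94 CPM (−2.45 ± 0.09, adjusted p = 1.9e-11). Fancb, of the Fanconi core complex, and Topbp1, an activator of the ATR checkpoint kinase, were lower by 1.98 and 1.70. Of 26 G1 cyclins, CDK inhibitors and E2F factors, 17 fell and 2 rose (median −0.43). E2f8, an atypical E2F repressor, went from 22.3, 23.5 and 22.6 CPM to 4.24, 4.18 and 4.21 CPM (−2.44 ± 0.08, adjusted p = 1.3e-11). Ccne1, the G1 cyclin E1, and Rbl1, the pocket protein p107, were lower by 1.19 and 1.37. The 2 that rose are both CDK inhibitors: Cdkn1a (p21), at 51.6, 52.2 and 61.2 CPM with NT and 234, 219 and 212 CPM with Pdx1 siRNA (2.01 ± 0.08, adjusted p = 4.5e-11), and Cdkn2b (p15), at 10.9, 10.4 and 11.5 CPM and 19.7, 17.2 and 19.4 CPM (0.78 ± 0.08, adjusted p = 1.0e-06).

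Genes that p53 is known to activate were mostly higher: 26 of 36 rose and 2 fell (median 0.77; 24 and 6 with library totals), against 29.2% and 30.4% of all genes. Phlda3, an inhibitor of AKT, was at 3.5, 4.05 and 4.54 CPM with NT and 45.9, 42.3 and 48 CPM with Pdx1 siRNA (3.50 ± 0.10, adjusted p = 5.2e-12). Ephx1, an epoxide hydrolase, went from 25.5, 25.5 and 24 CPM to 105, 98.9 and 123 CPM (2.12 ± 0.10, adjusted p = 9.7e-11), and Aen, an apoptosis-associated exonuclease, from 15, 15.1 and 15.8 CPM to 44.1, 44.8 and 43 CPM (1.52 ± 0.07, adjusted p = 6.2e-11). In each the treated libraries were well above the controls. Those that fell were Plk3, a polo-like kinase (−0.57 ± 0.07, adjusted p = 1.1e-05), and Trp53 itself (−0.46 ± 0.07, adjusted p = 9.9e-05). In the BCL2 family 5 of 17 rose and 3 fell (median 0.01, and 3 and 8 with library totals), which is 29.4% and 17.6%. Bbc3 (PUMA), which promotes apoptosis, rose by 0.98 ± 0.09, and Bcl2l1 (BCL-XL), which opposes it, by 0.57 ± 0.06 (adjusted p = 4.3e-07 and 1.8e-06). Bok and Bnip3l were lower (−0.74 and −0.69), Bnip3l with a copy over 34.9% of its transcript.

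Genes of the ATF4 and amino acid response were lower, with 19 of 32 falling and 3 rising (median −0.44). Psat1, of serine synthesis, was at 181, 177 and 184 CPM with NT and 74, 81.7 and 74.5 CPM with Pdx1 siRNA (−1.24 ± 0.07, adjusted p = 9.3e-10). Shmt2 and Mthfd2, of mitochondrial one-carbon metabolism, were lower by 0.86 ± 0.08 and 0.68 ± 0.07 (adjusted p = 1.6e-07 and 6.1e-07). Among members that rose were Sesn2, a leucine sensor, and Cbs, of transsulfuration (0.80 and 0.68). The amino acid response element TGATGCAA was in 5 of 34 promoters of this list (14.7%), against 0.534% of those of tested genes and 0.791% of all. Aminoacyl-tRNA synthetases, which charge tRNAs, showed the same direction: 16 of 20 fell and 2 rose (median −0.31; 11 and 1 with the split, 18 and 0 with library totals). Nars, Iars, Vars and Yars, for asparagine, isoleucine, valine and tyrosine, fell by 0.74, 0.75, 0.75 and 0.57 on the log2 scale, with SEs of 0.07, 0.09, 0.10 and 0.07. Qars, for glutamine, was higher by 0.39 ± 0.07 and lost its call with library totals (0.08, adjusted p = 0.338).

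ER chaperones, sensors of unfolded protein and genes of ER-associated degradation leaned the other way: 17 of 37 rose and 4 fell (median 0.23; 16 and 1 with the split), which turned to 10 and 12 with library totals (median −0.08). Xbp1, the transcription factor spliced by IRE1, was at 492, 458 and 518 CPM with NT and 780, 791 and 843 CPM with Pdx1 siRNA (0.72 ± 0.08, adjusted p = 2.6e-06). Edem2, of glycoprotein degradation, and Dnajb9 and Dnajc3, cochaperones of BiP, rose by 0.88, 0.90 and 0.62. Ero1b, an oxidase that forms disulfides in proinsulin, was lower (−0.35 ± 0.10, adjusted p = 0.0068), with a copy over 21.7% of its transcript, and did not pass with GC content smoothed out (−0.22, adjusted p = 0.0853), a setting chosen after seeing the data. Of 48 translation initiation and elongation factors, 10 rose and 17 fell (median −0.05, and 9 and 10 with the split, 3 and 30 with library totals). Without the split the shares were 20.8% and 35.4%, against 29.2% and 30.4% of all genes. Eif4ebp1, a repressor of cap-dependent initiation, went from 44.8, 40.2 and 49.8 CPM to 24.2, 25.2 and 26.1 CPM (−0.84 ± 0.10, adjusted p = 3.6e-06), and Eif4e, the cap-binding protein it holds, was lower by 0.56 ± 0.07, with a copy over 13.1% of its transcript. Eef2, the elongation factor of translocation, and Eif3f, a subunit of initiation factor 3, were higher by 0.74 and 0.73, Eef2 with a copy over 43.5%.

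Glycolysis and hypoxia response genes fell in 22 of 31 cases and rose in 2 (median −0.75; 20 and 1 with the split, 27 and 0 with library totals). Tpi1, the triosephosphate isomerase, was at 562, 618 and 490 CPM with NT and 186, 241 and 234 CPM with Pdx1 siRNA (−1.34 ± 0.13, adjusted p = 4.4e-07). Pfkp, a phosphofructokinase, went from 71.4, 79.6 and 76.8 CPM to 25.6, 36.6 and 35.2 CPM (−1.22 ± 0.16, adjusted p = 1.0e-05). In both, every treated library was under every control by a wide margin. Eno2, the neuronal enolase, was higher (0.48 ± 0.07, adjusted p = 1.6e-05) but did not pass with library totals (0.17, adjusted p = 0.0671). Of 35 sterol and fatty acid synthesis genes 6 were higher and 12 lower (2 and 28 with library totals). Stard4, a cholesterol carrier, Lss, lanosterol synthase, and Mvk, mevalonate kinase, fell by 1.17, 0.67 and 0.45, while Srebf1, the lipogenic factor SREBP-1, and Scap, which escorts it, rose by 1.17 ± 0.12 and 0.59 ± 0.11 (adjusted p = 7.8e-07 and 3.7e-04).

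Respiratory chain subunits were near the background, with 19 of 78 higher and 17 lower (median 0.01); with library totals 5 were higher and 42 lower, and with the split as a term 5 and 4 passed. Values on the list ranged from −1.72 to 2.51, with 4 members lower and 1 higher by 2-fold or more. Cox6a2, a subunit isoform of muscle and beta cells, was among those 4. It was at 8.61, 6.6 and 8.22 CPM with NT and 3.69, 3.13 and 2.79 CPM with Pdx1 siRNA (−1.30 ± 0.15, adjusted p = 2.5e-06). Its paralog Cox6a1 rose by 0.63 ± 0.09 (adjusted p = 1.8e-05). Mitochondrial ribosomal proteins fell in 31 of 77 cases and rose in 8 (median −0.16, 20 and 0 with the split, 58 and 0 with library totals). Mrpl18 was among the lower ones (−0.79 ± 0.11, adjusted p = 2.4e-05), and the lowest value on the list was −1.28. Of 37 proteasome subunits 26 fell and 3 rose (median −0.32; 19 and 0 with the split, 33 and 0 with library totals). Psmc3 and Psmc6, ATPases of the regulatory particle, and Psmd6 and Psmd14, of its lid, fell by 0.64, 0.63, 0.59 and 0.54. The higher ones were Psmd8, Psmb8 and Psmb10, named after their values were seen; the last 2 are subunits of the immunoproteasome, and none of the 3 passed with the split as a term (adjusted p = 0.449, 0.0746 and 0.111).

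Lysosome genes rose in 24 of 30 cases and fell in 1 (median 0.59; 22 and 0 with the split, 18 and 4 with library totals). Ctsh, a cathepsin, was at 11.7, 11.4 and 12.2 CPM with NT and 28.9, 28.6 and 31.5 CPM with Pdx1 siRNA (1.33 ± 0.08, adjusted p = 1.4e-09). Ctsz and Ctsb went up by 0.96 and 0.90, and Ctsd, which shares 34.4% of its exons with a gene model on the same strand, by 1.02. Autophagy genes, whose products deliver cargo to lysosomes, were higher in 7 of 34 cases and lower in 10 (4 and 6 with the split as a term, 1 and 22 with library totals). Without the split the shares were 20.6% and 29.4%, against 29.2% and 30.4% of all genes. Gabarapl1, an LC3-family protein with 28.3% of its exons in a gene on the opposite strand, rose by 0.86, and Optn, an autophagy receptor, and Rb1cc1, the initiation scaffold FIP200, were lower by 0.50 and 0.50. Of 21 genes for zinc transport and metallothioneins 12 rose and 3 fell (median 0.54; 10 and 7 with library totals). Slc39a8, a zinc and manganese importer, went from 60, 58.6 and 58.6 CPM to 11.1, 14.5 and 12.6 CPM (−2.21 ± 0.08, adjusted p = 2.0e-11), while the importers Slc39a11 and Slc39a13 rose by 1.18 and 0.83. Members of 1 transporter family thus moved in both directions. Mt2, a metallothionein, was lower (−0.79 ± 0.09, adjusted p = 3.3e-06), with 73.5% of its exons inside a gene on the opposite strand.

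Interferon response and antigen presentation genes were higher in 15 of 26 cases and lower in 3 (median 0.51; 11 and 7 with library totals). Tap1, the peptide transporter of class I loading, was at 16.6, 18.1 and 15.8 CPM with NT and 38.8, 34.9 and 49.4 CPM with Pdx1 siRNA (1.29 ± 0.14, adjusted p = 1.1e-06). B2m, the light chain of class I molecules, was at 572, 525 and 585 CPM and 1035, 1044 and 1268 CPM (0.99 ± 0.11, adjusted p = 2.2e-06), and H2-D1, a class I heavy chain with a copy over 13.8% of its transcript, rose by 0.92. Tap1, B2m and H2-D1 were above every control library, while Rsad2 (viperin), an interferon-induced antiviral enzyme, was lower (−0.83 ± 0.12, adjusted p = 2.2e-05). Of 24 immediate early genes 10 rose and 6 fell (median 0.15; 9 and 11 with library totals). Dusp6, a phosphatase of ERK, and Nr4a2, an orphan nuclear receptor, rose by 1.48 ± 0.09 and 1.23 ± 0.08, and Egr1 was lower by 1.07 ± 0.24 (adjusted p = 2.0e-09, 4.6e-09 and 0.00155). Matrix and junction genes had a median of 0.28 with 15 of 29 higher and 4 lower, which turned to 7 and 7 with library totals. Cdh1 (E-cadherin) and Epcam, an adhesion molecule of epithelia, rose by 0.52 and 0.38, and the tight junction scaffold Tjp1 was lower by 0.73; Epcam lost its call with library totals (0.07, adjusted p = 0.402).

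Insulin and IGF signalling genes were higher in 8 of 30 cases and lower in 10 (4 and 7 with the split as a term, 3 and 18 with library totals). Without the split the shares, 26.7% and 33.3%, were near the 29.2% and 30.4% of all genes. Igfbp7, an IGF-binding protein, rose by 1.44 ± 0.09, Pik3r3, a regulatory subunit of PI3 kinase, by 0.69 (with 24.3% of its exons in a gene on the same strand), and Irs1, the insulin receptor substrate, was lower by 0.67 ± 0.09 (adjusted p = 2.1e-09, 1.2e-06 and 8.8e-06); 30.9% of the Irs1 exons lie in a gene on the opposite strand. Of 13 genes that beta cells normally keep low, 3 were higher and 6 lower (median −0.42). Igfbp4, another IGF-binding protein on that list, was at 84.8, 86.1 and 88.8 CPM with NT and 466, 435 and 550 CPM with Pdx1 siRNA (2.48 ± 0.10, adjusted p = 3.4e-11), and Cd44, a hyaluronan receptor, rose by 1.52. Acot7, an acyl-CoA thioesterase, and Oat, an aminotransferase, were lower (−0.80 and −0.63). Of 12 markers of progenitors and dedifferentiation 7 rose and 2 fell (median 0.42), which became 4 and 4 with library totals (median 0.12). Serpina10, a protease inhibitor, was at 6.04, 5.38 and 5.52 CPM and 42.7, 40.5 and 50.4 CPM (2.98 ± 0.11, adjusted p = 1.9e-11), Cck, the peptide hormone cholecystokinin, rose by 0.75, and Cd81, a surface marker of immature beta cells, by 0.77. Dcx, doublecortin, was lower by 0.57.

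Markers of other cell types bear on how far the cells match their label. All 12 beta-cell markers were measured, with summed levels of 207056 to 241722 CPM with NT and 187849 to 232256 CPM with Pdx1 siRNA. Ins1, Ins2 and Iapp, at the levels given above, made up nearly all of these sums, which thus say little of the other markers. Of the 12 markers, 2 were higher and 6 lower, 0 and 5 with the split as a term and 0 and 9 with library totals. Pdx1, the target of the siRNA, counts among the lower markers. Of 13 acinar markers 1 was measured, Cela2a, at 0.477, 0.565 and 0.589 CPM and 0.336, 0.526 and 0.697 CPM, and it did not pass the test. Of 5 ductal markers 3 were higher and 1 lower (2 and 2 with library totals), with summed levels of 221 to 233 CPM with NT and 376 to 454 CPM with Pdx1 siRNA; Spp1, osteopontin, rose by 1.32 ± 0.13 and Krt7, a keratin of ducts, by 0.75 ± 0.09 (adjusted p = 3.5e-07 and 2.8e-06). Neuronal markers fell in 7 of 11 cases and rose in 2 (median −0.28, and 4 and 2 with the split). Tubb3, Nefh and Elavl3 were among those that fell, and those that rose were Syp and Gap43. Of 15 markers of immune, endothelial and stromal cells 0 were among the genes tested, so their levels were not analysed here. The part of ductal or neuronal transcripts in the results above was not tested.

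Small counts above hold further members, named after their values were seen. Wfs1, an ER membrane protein, Kcnj11, a pore subunit of the ATP-sensitive potassium channel, and Syt13 rose by 0.42, 0.50 and 0.43 among the PDX1 targets. Abcc8, the other subunit of that channel, and Ucn3, a peptide of mature beta cells, were the beta-cell markers that rose (0.40 and 0.33), and neither passed with the split as a term (adjusted p = 0.192 and 0.0543). Bax, an executioner of apoptosis, rose by 0.70, Bcl2 by 0.38 and Bag3, a cochaperone, by 0.41, and Bnip3, with a copy over 94.2% of its transcript, was lower (−1.82). Ffar1, a fatty acid receptor, Myc, the growth-promoting factor, and Mt1 were lower (−0.63, −0.85 and −0.71), as were Ifit2, of the interferon response (2.83-fold), Anxa2, an annexin on the ductal list (−1.77), and Col4a1 and Cdh22, of matrix and junctions (−0.42 and −0.42). Ppp1r15a, which restores translation after stress, rose by 0.50 and Krt18, a keratin, by 0.54. Syp and Gap43, on the neuronal list where 7 others fell, rose by 0.52 and 0.52. These genes passed with the split as a term except where stated. Wars, Pfkm and Dapp1 (higher, 0.21, 0.25 and 0.42) and Tfeb, Stat2, Ero1a, Vcp, Sec61b and Atp2a1 (lower, between −0.21 and −1.37) passed without it only, and for Atp2a1, a SERCA pump, the value with the split was 0.24.

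**Figure D2:**
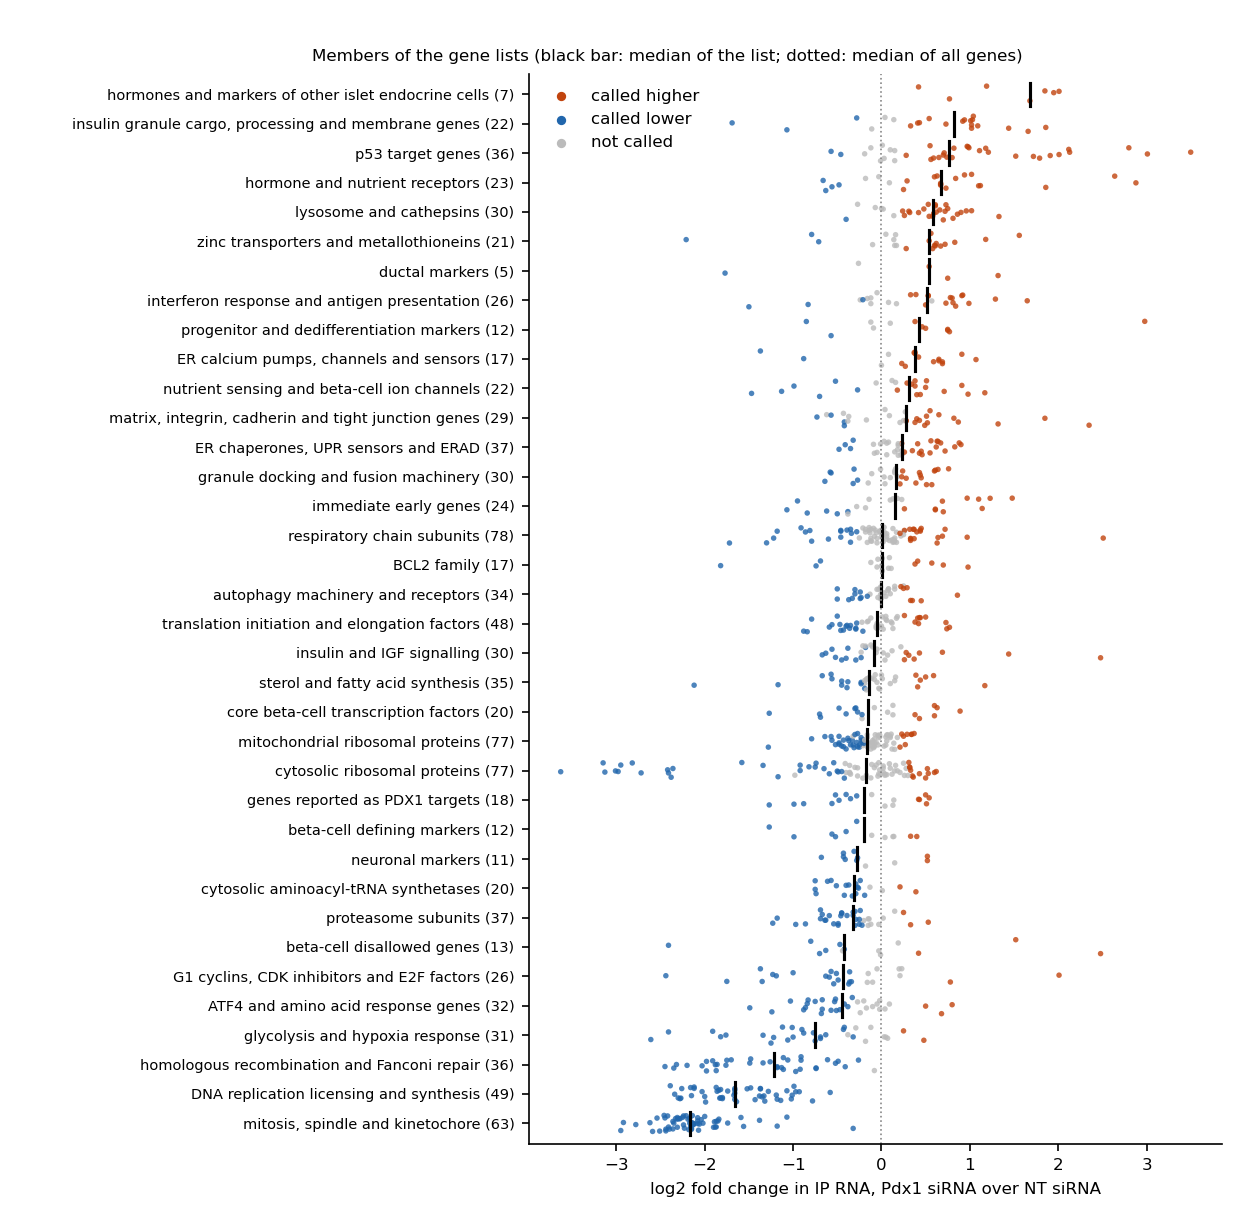
Change of each measured member in IP RNA (log2 fold change, Pdx1 siRNA over NT), 1 row per list of genes with 5 or more measured. Red points passed the test as higher, blue as lower and grey did not pass, the black bar is the list median and the dotted line the median of all genes. All members of the mitosis, replication and repair lists lie below 0 and all of the other islet hormones and markers above it.

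Cytosolic ribosomal proteins changed most between the fits. Without the split, 12 of 77 were higher and 27 lower (median −0.17; 1 and 43 with library totals); with it 13 were higher and 0 lower (median 0.23). NT library 3 was 2-fold or more below the mean of NT libraries 1 and 2 at 24 of the 77 (31.2%). The same held at 66 of 444 genes with a copy (14.9%) against 37 of 11605 genes with little or none (0.319%). The mean of the Pdx1 siRNA libraries was also 2-fold or more below that of NT libraries 1 and 2 at 21 of the 24, 60 of the 66 and 34 of the 37. This overlap was thus not particular to genes with a copy. Both ratios have the same denominator, so they are not independent. Rpl36, which has a copy over 97.9% of its transcript, was at 83.4, 76.4 and 4.91 CPM with NT and 6.92, 5.92 and 5.86 CPM with Pdx1 siRNA. Here the low NT library is the one that lies with the treated libraries, and the change of −3.15 ± 0.62 (adjusted p = 4.7e-04) became 0.34 (adjusted p = 0.113) with the split. Rplp2-ps1, at 119, 111 and 7.46 CPM and 7.26, 5.42 and 6.18 CPM, went from −3.67 to −0.26, Rpl32l, with a copy over 99.8%, from −4.83 to 0.27, and Wdr89 from −3.56 to −0.32. None of these passed with the split as a term. Rpl27a, of the large subunit, with a copy over 38.7%, kept its call, at 42.4, 37.8 and 40.2 CPM and 63.5, 63.4 and 58.3 CPM (0.62 ± 0.12, with the split 0.62, adjusted p = 4.5e-04 and 0.0102); with library totals it did not pass (0.32, adjusted p = 0.0752). Lars2, the mitochondrial leucyl-tRNA synthetase, varied among the controls alone, at 366, 10552 and 155 CPM against 44.9, 46.4 and 47.1 CPM, and NT library 2 decides its mean.

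**Figure D3:**
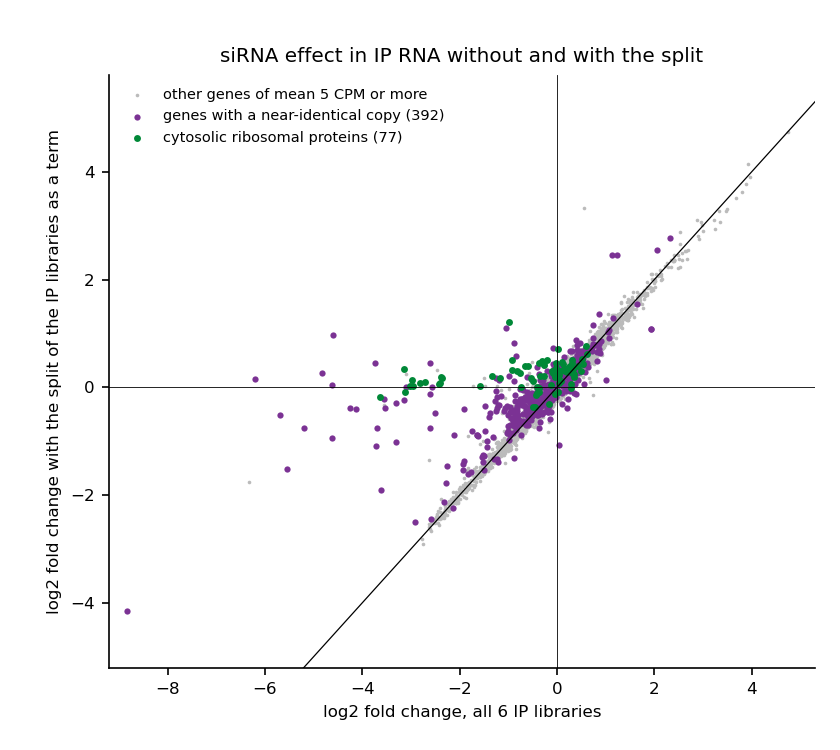
Log2 fold change in IP RNA without (x axis) and with (y axis) the split of the IP libraries as a term. Green points are the 77 ribosomal proteins and purple points the other genes with a near-identical copy over 50% or more of their transcript, both at any level. Grey points are the remaining genes of 5 CPM or more. Grey points follow the diagonal, and part of the green and purple points lie well below 0 on the x axis and near 0 on the y axis.

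The same siRNA effect was measured in total RNA, which asks whether ribosome-bound RNA changed differently from the RNA of the whole cell. Across 9990 genes of 5 CPM or more the effects in the fractions correlated with r = 0.89 and a slope of 1.07 of IP on total; genes are not independent replicates, and the fractions may come from the same cells. Over all 12643 genes, 3010 (23.8%) were called higher and 3686 (29.2%) lower in total RNA. Of the 7542 genes called in IP RNA, 5465 were called in the same direction in total RNA and 14 in the opposite direction. The other 2063 were called only in IP RNA, which does not show a difference. The difference itself, tested as an interaction, passed for 29 genes (0.229%), 22 with a higher and 7 with a lower effect in IP RNA, and for 5 (0.0395%) with the split as a term, 4 of the 29 and Tpt1. At an unadjusted p under 0.05 there were 2155, and 856 with the split. The effects differed for 3 to 571 genes over the settings tried, and the count depends on single libraries: 571 genes passed without NT IP library 3, 383 without Pdx1 siRNA total library 1, 66 without Pdx1 siRNA IP library 2 and 4 to 18 when any other was left out.

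Blm, Smarcal1 and Cnbd2 passed at 0.05 in all 26 settings tried. Blm fell in both fractions but by more in IP RNA: in total RNA it was at 13.1, 12.5 and 12.5 CPM with NT and 5.12, 5.19 and 5.35 CPM with Pdx1 siRNA (−1.28 ± 0.07), and the difference of the effects was −1.17 ± 0.12 (adjusted p = 5.4e-04). Smarcal1, an annealing helicase of stalled replication forks, was at 29.3, 28.2 and 30.7 CPM and 18.1, 16.3 and 16.5 CPM in IP RNA but at 21.8, 23.9 and 21.6 CPM and 22.8, 23.6 and 23 CPM in total RNA, where the treatments overlapped (difference −0.84 ± 0.10, adjusted p = 0.00246). Cnbd2, a cyclic nucleotide-binding protein with 21.5% of its exons in genes on the opposite strand, was higher in IP RNA (6.2, 6.51 and 5.5 CPM and 10.6, 9.33 and 10.5 CPM) and lower in total RNA (6.47, 5.52 and 5.11 CPM and 4.54, 4.62 and 4.72 CPM; difference 1.03 ± 0.15, adjusted p = 0.0113). These 3 genes differ in kind: 1 fell more in IP RNA, 1 fell there alone and 1 changed in opposite directions. C1qtnf4, a secreted C1q-like protein, rose in IP RNA only, from 13.1, 16.4 and 14.3 CPM to 25.2, 25.7 and 29.2 CPM against 8.99, 7.89 and 8.35 CPM and 7.98, 7.83 and 7.42 CPM in total RNA (difference 0.99 ± 0.13, adjusted p = 0.00631), and passed in 24 of the 26 settings.

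Others of the 29 passed in fewer settings. Srebf1 was at 613, 622 and 613 CPM (NT) and 1501, 1456 and 1212 CPM in IP RNA and at 620, 649 and 592 CPM and 516, 698 and 728 CPM in total RNA (difference 1.11 ± 0.17, adjusted p = 0.0116, 18 settings). Jund, an AP-1 subunit that shares 52.6% of its exons with a gene model on the opposite strand, rose by 1.14 in IP RNA and by 0.29 in total RNA (difference 0.86 ± 0.13, adjusted p = 0.0115, 20 settings). Nkx2-2, described above, rose by 0.89 in IP RNA and 0.31 in total RNA (0.58 ± 0.10, adjusted p = 0.0303, 13 settings). Apart from Blm and Smarcal1, the 7 lower genes were Bub1, E2f8, Mki67, Melk and Cep162; the last 3 were named after their values were seen. Bub1, a spindle checkpoint kinase, fell by 2.78 in IP RNA and 1.93 in total RNA, and E2f8 by 2.44 and 1.87. Pdx1 itself showed no such difference beyond its error (−1.27 in IP and −1.20 in total RNA, difference −0.08 ± 0.14, adjusted p = 0.814), and for Slc2a2 the effects were −0.99 and −0.33 (difference −0.66 ± 0.14, adjusted p = 0.0564).

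Base composition moved with this difference at the median, though the ranges overlapped. Transcript GC content was 48.2% to 70.7% (median 60.5%) in the 22 genes with the higher IP effect and 41% to 52.5% (median 45.8%) in the 7 with the lower one, against a median of 50.5% over all genes. In IP RNA the median log2 fold change by quartile of GC, from lowest to highest, was −0.15, −0.07, 0.05 and 0.13, and in total RNA it was −0.08, −0.05, −0.02 and −0.02. With the trend on GC smoothed out, a setting chosen after seeing the data, 4 genes passed the interaction test, 2 higher and 2 lower in IP RNA, all among the 29. C1qtnf4 did not (0.47, adjusted p = 0.126).

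**Figure D4:**
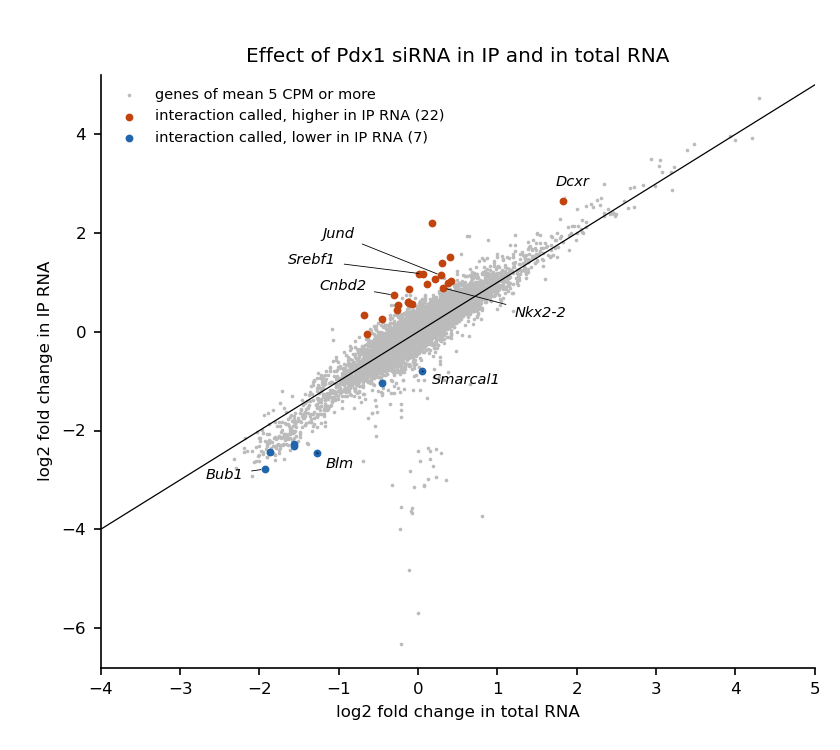
Effect of Pdx1 siRNA in total RNA (x axis) against IP RNA (y axis), as log2 fold changes of genes of 5 CPM or more. Red and blue points are the genes whose effects differed with a higher and a lower value in IP RNA, shown at any level, and grey points all others. Most points lie along the diagonal, with Blm and Bub1 below it at strongly negative values and Smarcal1 below it near 0 in total RNA.

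**Figure D5:**
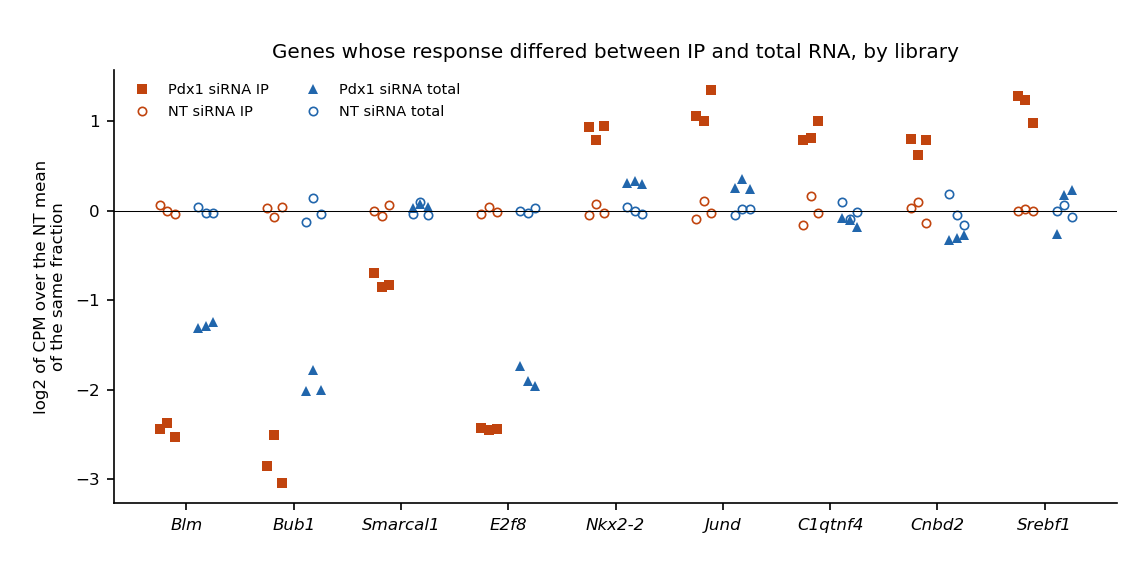
Levels of 9 genes whose effect differed between fractions, as log2 of CPM over the NT mean of the same fraction, 1 point a library. Pdx1 siRNA libraries are far from 0 in IP RNA for Smarcal1, C1qtnf4 and Srebf1 and near 0 in total RNA, and Blm is below 0 in both.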

How the data were processed

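RNA was sequenced from 12 libraries of MIN6 cells, 6 of them IP. The authors deposited raw read counts per RefSeq transcript. Per the submitters' processing notes, TopHat2, featureCounts and the build mm10 were used; versions, roles, strand setting and treatment of reads with several matches are not named there, so reads of near-identical genes, overlapping genes and antisense partners cannot be told apart. Of 17133 transcripts 16838 matched a gene symbol, the highest-total one was kept per gene, and 12643 genes remained; the unmatched held 0.577% to 0.834% of counts. The lowest count in any total RNA library was 7, and no filter is described.

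Counts were fitted with edgeR 4.0.16 (R 4.3.3; quasi-likelihood, TMM scaling, default filter, which removed 0 genes) over all 4 groups of 3 libraries, with Benjamini-Hochberg adjustment and a threshold of 0.05; the SE is the log2 fold change over the square root of F. The alternatives used DESeq2 1.42.0, other scalings, the split, a replicate block, transcript GC and left-out libraries. Near-identical copies were found with minimap2 2.31. With 3 libraries against 3, no exact permutation test of a single value goes below 0.10, so none is given. IP libraries held at least 29430690 counts, and IP replicates of a group differed by at least 14.13 times counting error (chi-square per degree of freedom), so the spread between libraries sets the precision.

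The members and gene lists were chosen with earlier results of these data known, and some lists follow genes seen to move, so list counts are descriptions. Named are Pdx1, Ins1, Ins2, Iapp, Mafa, Slc2a2 and Rpl32l; the 10 highest and 10 lowest changes among genes past the test with and without the split term, with a mean of 5 CPM or more, no overlap and a copy over less than 50%; per list up to 4 such members of smallest p and up to 2 in the minority direction; the extreme interaction values that passed in both fits; and the 4 genes of 20 CPM or more that the split moved most. Unnamed gene models were passed over. This gave 180 genes, not all of which are reported here. Promoters and gene symbols are from RefSeq (GRCm38.p6).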

Additional observations from a re-analysis of the deposited data

Results flagged for a closer look

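For 9 of the genes named above the effect of Pdx1 siRNA differed between IP and total RNA by a test of the difference itself, the interaction of fraction and treatment in edgeR's quasi-likelihood model. The effect was lower in IP RNA for Blm (−1.17), Bub1 (−0.85), Smarcal1 (−0.84) and E2f8 (−0.57), and higher for Srebf1 (1.11), Cnbd2 (1.03), C1qtnf4 (0.99), Jund (0.86) and Nkx2-2 (0.58), all on the log2 scale. With the split of the IP libraries as a term, Blm, Smarcal1, Cnbd2 and C1qtnf4 passed (adjusted p = 0.00527, 0.00537, 0.0182 and 0.0325). Srebf1, Jund, Nkx2-2, Bub1 and E2f8 did not (adjusted p = 0.126, 0.124, 0.209, 0.209 and 0.27), at differences of 1.12, 0.88, 0.60, −0.89 and −0.56, close to those without the term. Transcript GC content mostly went with the direction. It was 58.4%, 67.2%, 70.7%, 51.9% and 55.7% for the higher genes in the order Srebf1, Jund, C1qtnf4, Cnbd2 and Nkx2-2. For the lower genes Blm, Bub1, Smarcal1 and E2f8 it was 44.4%, 41%, 52.5% and 50.1%. The directions overlapped, with Smarcal1 above Cnbd2. The part of GC content in the difference was not tested beyond the smoothed setting.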

How the results depend on the processing

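Pdx1 stayed lower and past the test in every setting tried, between −1.58 and −1.18. Library totals in place of TMM gave 1692 genes higher and 6762 lower; keeping only NT IP library 3 and the Pdx1 siRNA libraries among the IP libraries gave 4914 changed genes, 2445 higher and 2469 lower. Other settings stayed within 1.5 times of the reported counts, and leaving out 1 IP library gave 6632 to 7233 changed genes, 3215 to 3552 higher and 3385 to 3681 lower. The count of genes differing between fractions was the least steady: 52 with upper-quartile factors, 11 with library totals, 54 without Ins1 and Ins2, 97 without genes with a copy, 5 with the split as a term or with the 4 IP libraries alone, 4 with GC smoothed out, alone or with the split, 327 with DESeq2, 3 at an adjusted p under 0.01, and 4 to 571 with 1 library left out; the causes were not tested. The replicate numbers were not used to pair libraries: same-numbered NT and Pdx1 siRNA IP libraries deviated from their group means with r of −0.0335, 0.0715 and 0.0857 across genes. Between the fractions r was 0.19, 0.475 and 0.106 for NT and 0.224, −0.0982 and 0.725 for Pdx1 siRNA, and between the total RNA groups 0.564, 0.625 and −0.0659, so not every pair deviated together. With a replicate block 7926 genes changed and 373 differed between fractions, and all 180 named genes kept their call. Ins2 was −0.28 with library totals, −0.16 with the split, −0.17 with the 4 IP libraries, −0.06 with GC smoothed out and −0.22 with GC and the split, against 0.04 as reported, and −0.03 to 0.15 with 1 library left out. Iapp was 0.05 with GC smoothed out. Rpl32l was 0.27, 0.26 and 0.23 and Rpl36 0.34, 0.33 and 0.20 with the split, the 4 IP libraries, and GC with the split. With library totals Qars, Eno2, Atg13, Epcam, Rpl27a and Krt18 lost their call and Iapp gained one. Ero1b (adjusted p = 0.0978), Cck (0.0607), Atg13 (0.0596) and Epcam (0.0544) lost it with the 4 IP libraries, and Ero1b (0.0546) and Rb1cc1 (0.0512) with GC and the split. Counting only copies over 90% of a transcript, the copy share was 0.494%, 0.457% and 0.372% in NT and 0.321%, 0.322% and 0.287% in Pdx1 siRNA IP libraries 1 to 3. The GC settings were chosen after seeing the data.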
